A study of Homo sapiens with 33 samples.

Results

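The transcripts of 8 protein kinases of the RAF-MEK-ERK and MEK5-ERK5 cascades were measured in human cancer cells with deletions in GABPB1. The 8 genes, ARAF, BRAF, MAP2K1, MAP2K2, MAPK3, MAP3K3, MAP2K5 and MAPK7, were taken by name from the authors' deposited tables, and all 8 were listed in each of the 3 tables, among 15149 gene names in all. They were selected on their names with the fold changes and adjusted p-values of these tables in view, that is, chosen by values described here, so those values are a description and no test of the choice. RNA sequencing was done on 33 libraries of the melanoma line A-375 and the bladder cancer line UM-UC-3. GABPB1 is the subunit that joins the DNA-binding ETS protein GABPA to form the transcription factor GABP, and its long splice form carries a leucine zipper. The A-375 total knockout joined 4 libraries from clones with exons 2 to 9 deleted and 8 libraries from 5 clones with exon 2 deleted. The UM-UC-3 total knockout joined 4 libraries with exons 2 to 9 deleted and 5 libraries from 4 clones with exon 2 deleted. The A-375 long-form knockout was 2 clones with exon 9 deleted. Controls were CRISPR clones cut at the ROSA26 safe-harbour locus (4 libraries in A-375 and 3 in UM-UC-3) and unedited parental cells (2 and 1 libraries). Every edited culture was a sorted single clone, and some libraries repeat a clone, so p-values measure the spread between these libraries, which may in part be technical.

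The authors' deposited tables hold, for each gene, the mean normalized count over all libraries of a fit, the log2 fold change of knockout over control with its standard error (SE), and a Benjamini-Hochberg adjusted p of DESeq2's Wald test. Values of single libraries were not analysed here, the depth of each library is unknown, and the sources do not say which controls were fitted. The tables' own names call the control parental, so the UM-UC-3 values, and each difference that uses them, may rest on 1 control library. In the deposited tables the GABPB1L entry, the long form, had a log2 fold change of -10.60 ± 0.70 in the A-375 total knockout, -12.60 ± 0.71 in the UM-UC-3 total knockout and -12.79 ± 1.47 in the A-375 long-form knockout. Transcripts that skip exon 2 have entries of their own, and that of the long form without exon 2 was higher in both total knockouts, at 13.61 ± 1.96 in A-375 and 11.82 ± 1.46 in UM-UC-3. The short-form entry GABPB1S was at -9.81 ± 0.72 in the A-375 total knockout and at 13.95 ± 1.04 in the long-form knockout. The short form without exon 2 was at 12.36 ± 1.88 and -12.00 ± 1.48 in the same order. Why these short-form entries turned sign between the A-375 tables was not tested. SOX10, a melanocyte-lineage factor, averaged 14704 normalized counts in the deposited A-375 total-knockout table, while of 8 melanocyte genes 5 were listed there and in the long-form table. The other listed genes in the A-375 total-knockout table averaged 1586 (S100B), 686 (MITF), 20.1 (PMEL) and 15.3 (TYRP1). The pigment-cell genes MLANA, TYR and DCT were not listed in it. Of 9 urothelial genes 4 were listed in the UM-UC-3 table, the uroplakins UPK1B, UPK2, UPK3A and UPK3B and the keratin KRT20 were not, and VIM, a mesenchymal filament protein, averaged 113393 normalized counts. Lineage markers differed between UM-UC-3 knockouts and controls. Of the 8 melanocyte genes 6 were listed there, with a summed mean of 716 normalized counts against 17011 in the A-375 total-knockout table and a median log2 fold change of 1.2. Of these 6, the factor MITF (1.47 ± 0.30) and the pigment enzyme DCT (2.20 ± 0.54) were called higher in the authors' deposited table for UM-UC-3, and PMEL and TYR were not listed. UPK1A, GATA3 and PPARG among the 4 urothelial genes were called higher, with a median of 0.86 over the 4, per the authors' deposited table. Of 3 listed epithelial genes, the keratin KRT18 fell by 0.67 ± 0.20, KRT7 rose by 0.93 ± 0.30 and KRT8 (-0.47 ± 0.38) was not called. Of 5 listed mesenchymal genes, ZEB1 (0.88 ± 0.20) and COL1A1 (1.06 ± 0.40) were called higher and 0 were called lower. Of all genes in UM-UC-3, 17% were called higher and 14.2% lower. The part of these markers in the UM-UC-3 results was not tested.

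In both cascades a kinase signal passes through a chain of 3 enzymes. RAF kinases, ARAF and BRAF among them, phosphorylate MEK1 and MEK2, the products of MAP2K1 and MAP2K2, which phosphorylate ERK kinases such as ERK1, the product of MAPK3. In the parallel chain MEKK3 or MEKK2, the products of MAP3K3 and MAP3K2, act on MEK5, encoded by MAP2K5, whose known substrate is ERK5, encoded by MAPK7. ERK5 has a long tail that can itself activate transcription, and its known outputs include the MEF2 factors and the genes KLF2 and KLF4. The RAF-MEK-ERK chain is driven by activating BRAF mutations in many melanomas, A-375 included, and by RAS mutations in part of bladder cancers.

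MAP2K5 turned out to be the kinase with the clearest difference, so its promoter is shown together with that of ARAF, the other gene of the 8 whose promoter window held the same 6-letter ETS-type motif and which was not called in any table. Both were copied from RefSeq's promoter windows (GRCh38.p14, 250 bases before to 50 bases after an annotated start), in which all 8 genes matched by symbol, with 12 windows between them. The MAP2K5 window is chr15:67542453-67542752 on the plus strand, at its upstream annotated start, and the ARAF window is chrX:47560955-47561254 on the plus strand. Capitals mark CCGGAA or, on the other strand, TTCCGG.
MAP2K5: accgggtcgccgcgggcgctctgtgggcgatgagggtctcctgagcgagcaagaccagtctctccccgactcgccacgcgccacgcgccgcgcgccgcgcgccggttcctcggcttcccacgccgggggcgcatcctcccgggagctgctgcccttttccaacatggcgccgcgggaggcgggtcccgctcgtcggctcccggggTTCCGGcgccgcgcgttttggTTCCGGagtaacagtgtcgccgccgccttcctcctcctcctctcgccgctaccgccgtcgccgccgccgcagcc
ARAF: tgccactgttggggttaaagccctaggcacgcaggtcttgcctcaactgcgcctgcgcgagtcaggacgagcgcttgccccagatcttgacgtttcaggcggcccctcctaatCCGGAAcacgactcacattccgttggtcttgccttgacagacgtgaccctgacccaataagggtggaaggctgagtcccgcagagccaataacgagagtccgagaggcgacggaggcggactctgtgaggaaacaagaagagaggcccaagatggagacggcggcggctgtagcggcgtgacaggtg
CCGGAA occurred at 2 places in the MAP2K5 window, beginning at -45 and -24 from the start and read on the reverse strand, and at 1 place in the ARAF window, beginning at -137 and read on the forward strand. That motif was chosen after these promoters were seen. On either strand it was present in 17.2% of 35116 RefSeq windows of the same length and present at 2 or more places in 4.23%. The longer GABP-type motif CCGGAAG was in none of the 12 windows and in 10.3% of all windows, and the 6 letters CGGAAG, which lie within it, were in none of the 12 and in 19.5% of all. The core GGAAG, which overlaps both, was in 9 of the 12 windows, belonging to 7 of the 8 genes, and in 71.9% of all. A match describes letters only, and binding was not measured here.

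**Figure D1:**
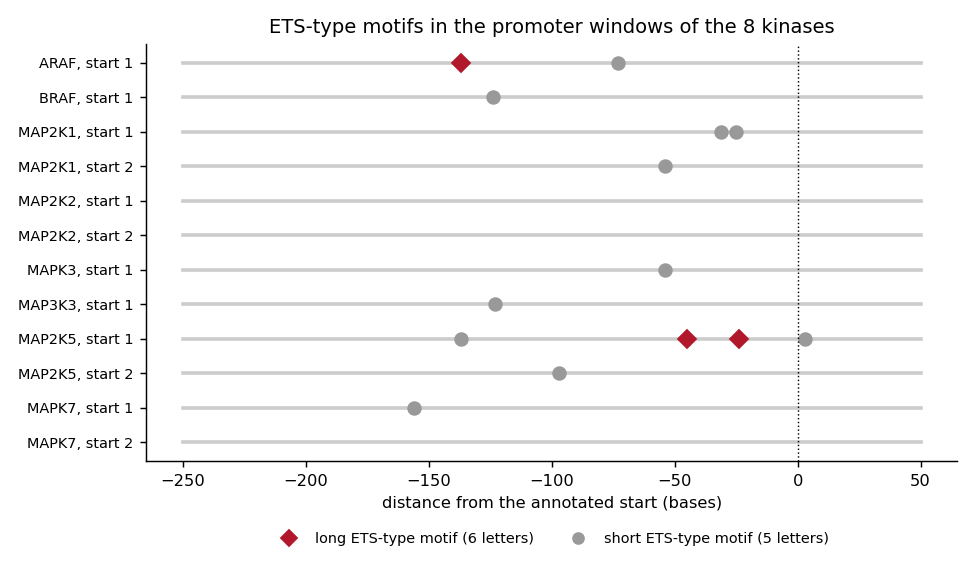
Positions of ETS-type motifs in the 12 RefSeq promoter windows of the 8 kinases; the x axis is the distance in bases from the annotated start, red diamonds are the 6-letter motif and grey circles the 5-letter core. Red diamonds stand only in the windows of ARAF, at -137, and of MAP2K5, at -45 and -24.

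MAP2K5 fell in the total knockout of both cell lines. Its A-375 entry in the authors' deposited table had a log2 fold change of -2.15 ± 0.27 (SE), which is 22.5% of the control level with a 95% interval of 15.6% to 32.3%, at an adjusted p of 1.24e-12. In a culture, less RNA in each cell and fewer cells with the transcript cannot be told apart. MAP2K5 ranked 9 of 14330 genes by p-value there. The UM-UC-3 entry in the authors' deposited table was -1.17 ± 0.21, or 44.5% of control (33.4% to 59.2%), at an adjusted p of 1.02e-06 and rank 380 of 13310. The long-form entry in the authors' deposited table was -0.24 ± 0.10, or 84.4% of control (73.2% to 97.3%), with an unadjusted p of 0.019 and an adjusted p of 0.339, and it was not called. MEK5 is the only known direct activator of ERK5, and of the 8 transcripts this was the one called lower in A-375 and the one called lower in UM-UC-3.

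**Figure D2:**
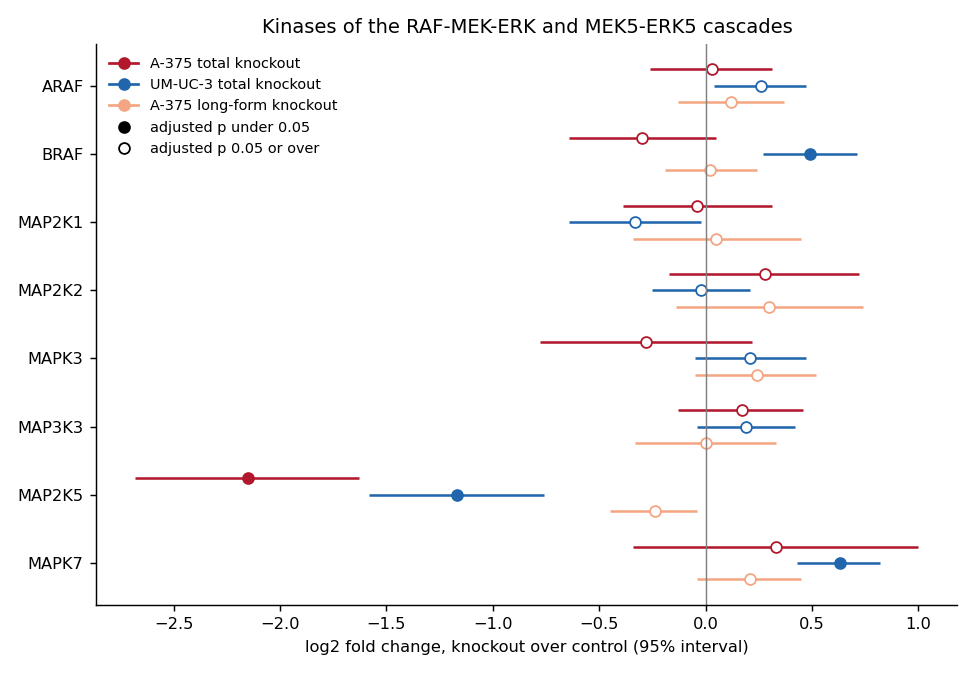
Log2 fold change of knockout over control (x axis) for the 8 kinases in the authors' deposited tables, with lines for the 95% interval; filled points have an adjusted p under 0.05. MAP2K5 lies at -2.15 in the A-375 and -1.17 in the UM-UC-3 total knockout, and in UM-UC-3 BRAF and MAPK7 lie at 0.49 and 0.63.

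Levels of MAP2K5 in each group were worked out from the mean and the fold change of the authors' deposited tables, assuming in turn that the parental libraries, the ROSA26 libraries or all controls were fitted. With all 6 A-375 controls in the fit, MAP2K5 stood at 143 normalized counts in the total knockout and 639 in controls, and with 2 controls at 207 in the knockout and 920.1 in controls. With all 4 UM-UC-3 controls it stood at 912 in the knockout and 2051 in controls, and with 1 control at 1123 and 2524. In the long-form table with 6 controls it stood at 1534 in the knockout and 1817 in controls. Counts in the long-form table were 2.86 times those of the total-knockout table of A-375 in the median over 13954 genes, and divided by that ratio the control level of 1817 becomes 635. The control level of the total-knockout table was 639 with 6 controls assumed. With the 4 ROSA26 controls assumed the rescaled level and that of the total-knockout table were 644 and 737. With the 2 parental controls assumed they were 662 and 920.1. Which controls were fitted was not tested.

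The fold change of MAP2K5 lay further below 0 in A-375 than in UM-UC-3, by a margin close to the threshold. The log2 fold change in UM-UC-3 minus that in A-375 was 0.99 ± 0.34 (95% interval 0.32 to 1.65), at an adjusted p of 0.0412 from a Wald test computed from the authors' deposited tables and adjusted over 12639 genes. Over those genes 10.4% differed at that threshold. Once each table was centred on its median gene, the difference was 0.90 and its adjusted p 0.0649, so this call depended on the scaling. Within A-375, the long-form minus the total-knockout fold change of MAP2K5 was 1.91 ± 0.29 (1.35 to 2.47), at an adjusted p of 3.98e-08, where 4.45% of 13946 genes differed. The A-375 tables may share control libraries, in which case the stated SE is not exact. None of the other 7 kinases passed the threshold for a difference between the A-375 knockouts, with log2 differences of -0.16 (MAP3K3) to 0.51 (MAPK3); at an unadjusted p under 0.05 the count among those 7 was 0.

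MAP2K5 lies on chromosome 15 at 67542709-67807123 on the plus strand of hg38 (GENCODE 29), 17.2 Mb beyond the end of GABPB1 on the same chromosome and 1.16 Mb from the start of MAP2K1. In the A-375 total knockout the 290 genes of that chromosome beyond GABPB1 had a median log2 fold change of -0.23 in the authors' deposited table. Of these 22 were called lower and 8 higher. Over all 13451 placed genes the median was -0.05, with 783 called lower and 677 higher. In the UM-UC-3 total knockout the median of 264 such genes of chromosome 15 was 0.03, with 43 called lower and 33 higher. Over all 12506 placed genes the median was also 0.03, with 1775 called lower and 2136 higher. As an alternative setting, the median of the 50 nearest measured neighbours of MAP2K5 was subtracted from its value. That setting treats a shift as equal over neighbours, and the part of the A-375 shift in the MAP2K5 value was not tested. MAP2K5 was then at -1.95 in A-375 (adjusted p 3.24e-10), at -1.12 in UM-UC-3 (3.15e-06) and at -0.32 in the long-form knockout (0.122). MAP2K1, which lies in the same stretch, was at -0.04 as deposited in A-375 and at 0.18 after the subtraction, called in neither.

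MAPK7, which encodes ERK5, the substrate of MEK5, and lies on chromosome 17 at 19377721-19383544 on the plus strand, rose in UM-UC-3. Its log2 fold change there was 0.63 ± 0.10, or 155% of control (135% to 177%), at an adjusted p of 2.33e-08 and rank 214 of 13310 in the authors' deposited table. Its implied level in UM-UC-3 was 1440.2 normalized counts in the total knockout and 932 in controls with 4 controls assumed, and 1331 and 861 with 1 control. For the A-375 total knockout the authors' deposited table gave MAPK7 0.33 ± 0.34, or 126% of control (79.2% to 200%), at an adjusted p of 0.577. That interval takes in both no change and the UM-UC-3 value, and the difference UM-UC-3 minus A-375 was 0.30 ± 0.35 (-0.40 to 0.99; adjusted p 0.640). For the long-form knockout the authors' deposited table gave 0.21 ± 0.13, at an adjusted p of 0.545. MAP2K5 and MAPK7, kinase and substrate, thus stood on opposite sides of their controls in UM-UC-3, with MAP2K5 minus MAPK7 at -1.80 ± 0.23 there, -2.49 ± 0.43 in the A-375 total knockout and -0.45 ± 0.16 in the long-form knockout, with the SE taken as if the genes' errors were independent. B9D1, a ciliary gene, overlaps MAPK7 by 473 bases on the opposite strand and was at -0.26 ± 0.19 in UM-UC-3 (adjusted p 0.306) in the authors' deposited table.

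MAP3K3, which encodes MEKK3, an activator of MEK5, was called in none of the authors' deposited tables. Its log2 fold changes were 0.17 ± 0.15 in the A-375 total knockout (adjusted p 0.525), 0.19 ± 0.12 in the UM-UC-3 total knockout (0.215) and 0.00 ± 0.17 in the long-form knockout (0.996). Its intervals in the total knockouts ran from -0.13 to 0.46 in A-375 and from -0.04 to 0.42 in UM-UC-3, so a change of MAP3K3 as large as that of MAP2K5 lies outside both.

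BRAF, the RAF kinase with the strongest basal activity, is encoded on chromosome 7 at 140719327-140924928 on the minus strand. It rose in UM-UC-3 and was not called in A-375. BRAF in the authors' deposited table for UM-UC-3 was at 0.49 ± 0.11, or 140% of control (121% to 163%), at an adjusted p of 0.000116 and rank 947 of 13310. Its implied level there was 1708 normalized counts in the total knockout and 1215 in controls with 4 controls assumed. The value for the A-375 total knockout in the authors' deposited table was -0.30 ± 0.18, or 81.5% of control (64.2% to 103%), at an adjusted p of 0.279. The difference UM-UC-3 minus A-375 was 0.79 ± 0.21 (0.38 to 1.19), at an adjusted p of 0.00484 over 12639 genes, and it was the second of 2 such differences among the 8 kinases. In the long-form knockout BRAF was at 0.02 ± 0.11 (0.955) in the authors' deposited table. NDUFB2, a respiratory complex I subunit gene, overlaps BRAF by 3464 bases on the opposite strand and, per the authors' deposited table, fell by 0.66 ± 0.18 in UM-UC-3 (adjusted p 0.0013). The kit is stranded, but no source used here says if reads were counted by strand, and the part of this overlap in the BRAF value was not tested.

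ARAF, a RAF kinase of low basal activity encoded on the X chromosome, had log2 fold changes of 0.03 ± 0.15 in the A-375 total knockout, 0.26 ± 0.11 in the UM-UC-3 total knockout and 0.12 ± 0.13 in the long-form knockout, in the authors' deposited tables. In UM-UC-3 its unadjusted p was 0.0181 and its adjusted p 0.0563, just over the threshold. MAP2K1, encoding MEK1, was at -0.04 ± 0.18 in A-375, at -0.33 ± 0.16 in UM-UC-3 (adjusted p 0.0911; 79.4% of control, 64.1% to 98.3%) and at 0.05 ± 0.20 in the long-form knockout of the authors' deposited tables. The 50 chromosomal neighbours of MAP2K1 had a median of -0.17 in UM-UC-3, and after their subtraction it was at -0.16 (adjusted p 0.458). MAP2K2, encoding MEK2, was at 0.28 ± 0.23, -0.02 ± 0.12 and 0.30 ± 0.23 in the same order. MAPK3, encoding ERK1, was at -0.28 ± 0.26, 0.21 ± 0.13 and 0.24 ± 0.14 in that order, with no adjusted p under 0.228. ARAF, MAP2K1, MAP2K2 and MAPK3 were called in none of the 3 tables. By name, ARAF, BRAF and MAP2K1 have annotated pseudogenes (3, 1 and 1) whose reads may be shared with them.

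Counted together, 1 of the 8 kinases was called lower and 0 were called higher in the A-375 total knockout, where 10.8% of all 14330 genes were called, 5.74% lower and 5.07% higher. In UM-UC-3 2 were called higher and 1 lower, where 31.1% of 13310 genes were called, 17% higher and 14.2% lower. In the long-form knockout 0 were called, with 1 of 8 at an unadjusted p under 0.05 in DESeq2's Wald test, where 0.904% of all genes were called, 0.24% higher and 0.664% lower. The median log2 fold change of the 8 was -0.01 in the A-375 total knockout, 0.20 in UM-UC-3 and 0.08 in the long-form knockout, against -0.05, 0.03 and 0.02 over all genes. Over all genes of the A-375 total knockout 726 were called higher and 823 lower as deposited, and 906 higher and 647 lower once the table was centred on its median. In UM-UC-3 the split was 2260 higher and 1885 lower as deposited, and 2037 higher and 2106 lower after centring. The calls of the 8 kinases were the same in each table after centring.

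**Figure D3:**
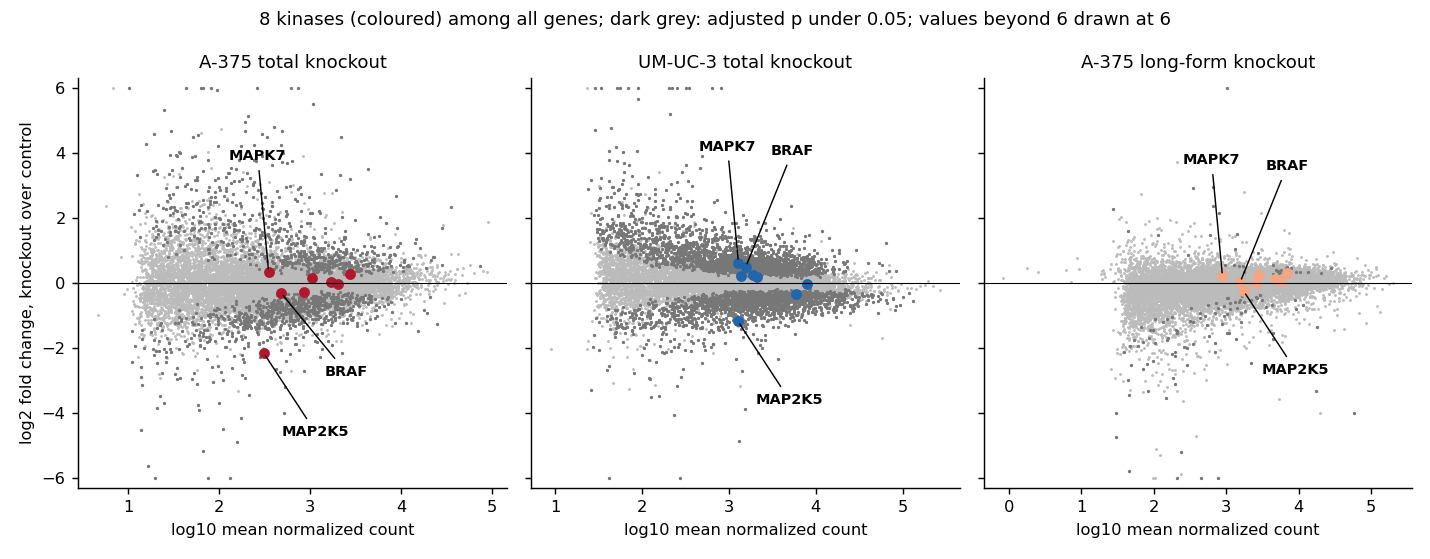
Log2 fold change of knockout over control (y axis) against the log10 mean normalized count (x axis) for all genes of the authors' deposited tables; dark grey points have an adjusted p under 0.05, values beyond 6 are drawn at 6, and the 8 kinases are coloured. MAP2K5 lies at the lower edge in A-375 (-2.15) and near the middle of the cloud in the long-form knockout (-0.24), and its neighbours in the cascades stay within 0.63 of no difference.

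Levels were compared between genes per kilobase of the longest annotated transcript, since a long transcript collects more reads. On that scale MAP2K2 was the most and BRAF the least abundant of the 8 in every table, with 942 and 49.7 normalized counts per kb in the A-375 total knockout, 2733 and 162 in UM-UC-3 and 2403 and 163 in the long-form knockout. In the A-375 total-knockout table ARAF (679), MAP2K1 (592), MAPK3 (329.7), MAP3K3 (217), MAP2K5 (131) and MAPK7 (77.1) followed MAP2K2 in that order. The place of BRAF depended on the division by its longest transcript, of 9578 bases. Undivided, its mean was above that of MAPK7 in every table, at 476 against 349.6 in the A-375 total-knockout table. Which transcripts the cells expressed was not tested. With 4 controls assumed in UM-UC-3, MAP2K5 was at 389 normalized counts per kb in the knockout and 874 in controls, while MAPK3 was at 559 in the knockout and 483 in controls, so MAP2K5 lay below MAPK3 in the knockout and above it in controls. With 6 controls assumed, MAP2K5 was at 61.1 per kb in the A-375 total knockout and 272 in its controls, so in the knockout it lay below MAPK7 (82.8) and in controls above MAP3K3 (201). With 2 controls assumed it was at 88 in the knockout, above MAPK7 (79.5), so that order depended on the controls. The spread of levels over libraries is not known, so whether neighbours in this order differ beyond it was not tested.

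**Figure D4:**
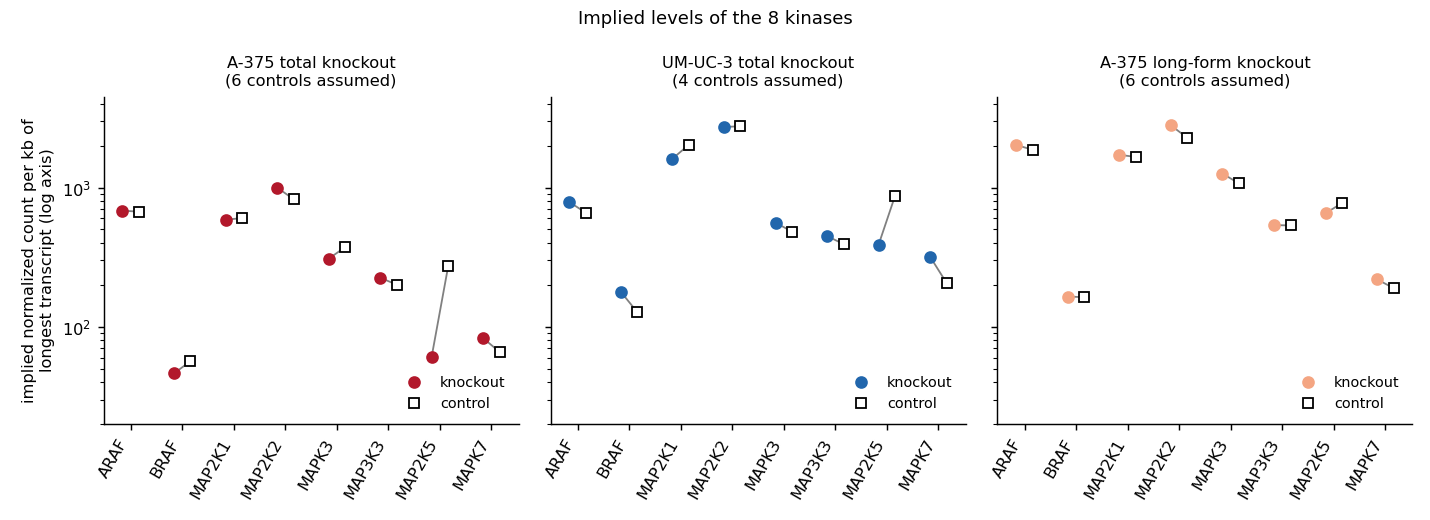
Implied normalized counts per kb of the longest transcript (log axis) of the 8 kinases in knockouts (circles) and controls (squares), worked out from the authors' deposited tables with all controls assumed in the fit. MAP2K5 stands at 61.1 in the A-375 total knockout and 272 in its controls, the widest gap of the 3 panels.

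The other genes of the MEK5-ERK5 arm had most of their calls in UM-UC-3. Of its 9 other genes, 8 were listed in UM-UC-3, and 5 rose and 1 fell, with a median log2 fold change of 0.57 against 0.03 over all genes. Of all genes 31.1% were called in UM-UC-3 (17% higher, 14.2% lower) and 10.8% in the A-375 total knockout. KLF4, a zinc-finger factor induced through ERK5 in endothelial cells, rose in the authors' deposited table for UM-UC-3 by 1.87 ± 0.41 (adjusted p 7.32e-05), whereas KLF2, a related factor with the same known input, fell by 1.17 ± 0.25 (3.48e-05). MEF2D, a transcription factor phosphorylated by ERK5, rose by 0.61 ± 0.14 (0.000166) and PRKCZ, an atypical protein kinase C, by 1.00 ± 0.23 (0.000167) in the same authors' deposited table. MEF2A, at 0.53 ± 0.13 (0.000615), and MAP3K2, which encodes MEKK2 and was at 0.63 ± 0.16 (0.00089), were also called there and are named after their values were seen. In the A-375 total knockout 1 of the 9 was called, SQSTM1, which encodes the adaptor p62 and was at 1.24 ± 0.32 (0.00275) in the authors' deposited table and is likewise named after its value was seen. In the long-form knockout 0 of 9 were called by DESeq2's Wald test, with 0 at an unadjusted p under 0.05.

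Other members of the RAF-MEK-ERK chain had calls in both total knockouts and none in the long-form knockout. Of all genes 10.8% were called in the A-375 total knockout (5.74% lower, 5.07% higher) and 31.1% in UM-UC-3 (14.2% lower, 17% higher). KSR2, a kinase-like scaffold of RAF and MEK, rose in both total knockouts, by 1.72 ± 0.51 in A-375 (adjusted p 0.0135) and by 1.23 ± 0.38 in UM-UC-3 (0.00598) in the authors' deposited tables, and was 1 of 4 other kinases of the chain called in each. Its level was low, with a mean of 76.3 normalized counts in A-375 and 351 in UM-UC-3, where the median genes were at 542 and 1369.9. Among 11 genes of RAS and its upstream control, 2 fell in A-375 in the authors' deposited table, among them NF1, a negative regulator of RAS, by 0.65 ± 0.12 (adjusted p 1.71e-05). Among the same 11 in UM-UC-3, 2 fell and 1 rose: NF1 fell by 0.24 ± 0.09 (0.0319), GRB2, an adaptor that recruits the RAS activator SOS, fell by 0.37 ± 0.09 (0.000931) and MRAS rose by 0.95 ± 0.29 (0.00592) in the authors' deposited table.

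Scaffolds and regulators of RAF, MEK and ERK were called in UM-UC-3, where 5 of 15 fell and 2 were called higher, against 14.2% of all genes lower and 17% higher. Neither of the 2 was called once the table was centred on its median gene. YWHAB and YWHAH, 14-3-3 proteins that bind RAF, fell by 0.46 ± 0.11 (adjusted p 0.00044) and 0.37 ± 0.10 (0.00235) in UM-UC-3, per the authors' deposited table. PEBP1, a RAF inhibitor protein, fell by 0.43 ± 0.12 (0.00209) and HSP90AA1, a chaperone on which RAF kinases depend, fell by 0.69 ± 0.22 (0.00937) in the authors' deposited table. None of the 15 was called in the A-375 total knockout, with 2 at an unadjusted p under 0.05. Among 7 kinases that ERK activates, RPS6KA5 (MSK1) rose by 0.88 ± 0.13 (2.6e-09), MKNK1 rose by 0.36 ± 0.14 (0.0333) and RPS6KA4 (MSK2) fell by 0.50 ± 0.11 (6.17e-05) in the authors' deposited table for UM-UC-3, and centring ended the call of MKNK1 (adjusted p 0.0544).

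Of 18 genes used as a readout of ERK signalling, 17 were listed in UM-UC-3, where 6 rose and 1 fell, with a median log2 fold change of 0.35 against 0.03 over all genes and with 17% of all genes called higher and 14.2% lower. DUSP4, a phosphatase that acts on ERK, rose by 1.45 ± 0.31 (6.87e-05), SPRED1, an inhibitor of RAF activation, by 0.88 ± 0.19 (8.45e-05) and PHLDA1 by 1.01 ± 0.23 (0.000208) in the authors' deposited table. The 1 that fell was FOSL1, by 0.38 ± 0.14 (adjusted p 0.0248). Of the 17, 10 were not called, among them DUSP6 (-0.04 ± 0.18), ETV5 (-0.01 ± 0.10) and CCND1 (-0.22 ± 0.17). FOSL1 and these 3 are named after their values were seen. In the A-375 total knockout 1 of 18 was called, SPRY4, a feedback inhibitor of RAS and RAF, which fell by 1.24 ± 0.40 (0.0247) in the authors' deposited table and which rose by 0.99 ± 0.37 (0.0307) in UM-UC-3; it is named after its values were seen, and the difference was not tested. In the long-form knockout 1 of 18 was called, against 0.904% of all genes. It was IER3, an immediate-early gene, which fell by 1.69 ± 0.36 (0.00126) and which was at 2.30 ± 0.87 (0.0638) in the A-375 total knockout, in the authors' deposited tables. IER3 averaged only 85.8 normalized counts in the long-form table, where the median gene was at 1564. In the neighbouring JNK, p38 and atypical MAPK arms, MAPK11, the p38 beta kinase, fell in both total knockouts, by 0.91 ± 0.32 in A-375 (0.0409) and by 0.94 ± 0.11 in UM-UC-3 (1.38e-14) in the authors' deposited tables, and centring ended its call in A-375 (adjusted p 0.0576). MAP2K6, an activator of p38, fell by 2.54 ± 0.52 in A-375 (9.94e-05) and was not listed in UM-UC-3. MAP3K11 and MAP3K4, which act above JNK and p38, fell in UM-UC-3 by 0.44 ± 0.10 (0.00036) and 0.31 ± 0.12 (0.026) in the authors' deposited table. MAP3K5 and MAP3K20, named after their values were seen, rose there by 0.44 ± 0.18 (adjusted p 0.0417) and 0.33 ± 0.13 (0.0383), and centring ended both calls. In the A-375 total knockout 2 of 19 listed genes of these arms were called lower and 0 higher, where 5.74% of all genes were called lower. In UM-UC-3 3 of 16 were called lower and 2 higher, where 14.2% of all genes were called lower and 17% higher.

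Over the 7 lists, 2 of 83 listed pathway genes were called higher and 5 lower in the A-375 total knockout, 19 of 78 higher and 13 lower in UM-UC-3, and 0 of 82 higher and 1 lower in the long-form knockout, where 5 had an unadjusted p under 0.05. The shares over all genes were 10.8%, 31.1% and 0.904%, and the median log2 fold changes of the 7 lists together were 0.02, 0.07 and 0.05 in the same order. No test of the lists was made.

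**Figure D5:**
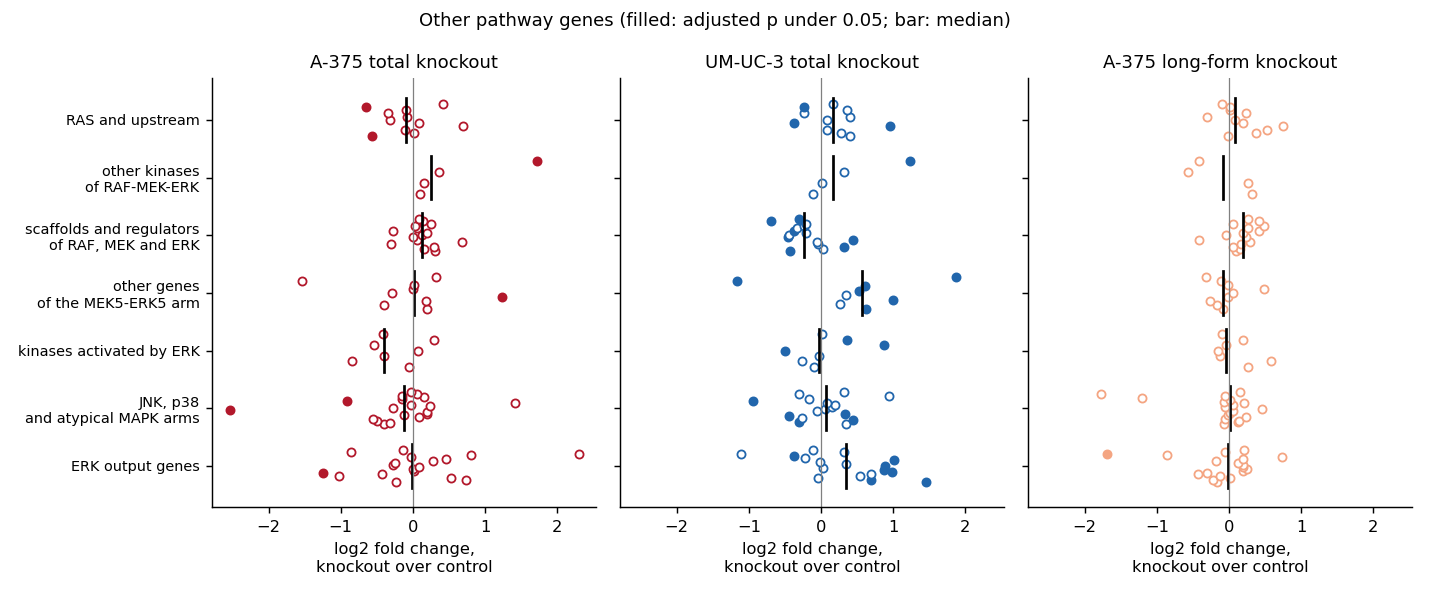
Log2 fold change of knockout over control (x axis) of the other genes of 7 pathway lists in the authors' deposited tables; filled points have an adjusted p under 0.05 and bars are list medians. In UM-UC-3 the MEK5-ERK5 arm has its median at 0.57 and the ERK output genes at 0.35.

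The genes whose log2 fold changes over the 3 tables lay nearest to those of MAP2K5 were VANGL1, NSUN5, STAMBP, PEX11A and TMEM216, at distances of 0.19, 0.28, 0.33, 0.48 and 0.55 among 10503 genes whose mean reached 100 in each table. The measure is the root of the summed squared differences over 3 values, of which the A-375 pair may share controls. VANGL1, a planar cell polarity protein, was at -2.05 ± 0.73 in the A-375 total knockout, -1.14 ± 0.22 in UM-UC-3 and -0.09 ± 0.21 in the long-form knockout of the authors' deposited tables. STAMBP, a deubiquitinase of endosomal sorting, was at -2.06 ± 0.29 (adjusted p 1.23e-09), -1.11 ± 0.16 (1.55e-10) and 0.07 ± 0.09 (0.806) in the authors' deposited tables. NSUN5, an RNA methyltransferase gene with near-identical pseudogene copies, was at -1.88 ± 0.80 in A-375, where its adjusted p was 0.104, and at -1.24 ± 0.22 in UM-UC-3 in the authors' deposited tables.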

How the data were processed

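Polyadenylated RNA of CRISPR-edited clones and unedited cells was sequenced with a stranded kit, per the labels' protocols. The submitters' processing notes name HISAT2, SAMtools, StringTie, DESeq2 and build hg38. Not given in the sources used here: versions, annotation, gene filter, strand setting, design formula and fitted controls. The authors deposited 3 tables with 14332 (A-375 total knockout), 13310 (UM-UC-3 total knockout) and 14160 (A-375 long-form knockout) entries. Their signal column is the mean over libraries of counts that the authors normalized, per the file headers. The log2 columns deposited by the authors hold knockout over control and the standard error, and the score column holds the Wald statistic. The p-value columns deposited by the authors hold, per the file headers, the Wald p, its Benjamini-Hochberg form (adjusted p) and a q-value. The median mean count was 542, 1369.9 and 1564 in the same order, depth per library is unknown, and the precision of a value is its SE.

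The 8 genes and the 7 pathway lists were chosen with earlier results of these data known. Calls needed a deposited adjusted p under 0.05. Up to 4 genes per list with the smallest adjusted p in any table were named, and a few genes this would name are not reported here. MAP3K20 is listed under an older symbol. Differences between tables were tested with a Wald z, the log2 fold changes subtracted and divided by the SE of that subtraction under independence, and adjusted by Benjamini-Hochberg across genes averaging 10 or more in both. The difference test was checked on simulated data with independent errors and a set difference larger than any reported here for the 8 kinases. That check covers neither smaller differences nor tables that share controls. Group levels follow from the mean, the fold change and an assumed number of controls, and levels per kb use the longest GENCODE 29 transcript. Motifs were sought on both strands. Alternatives were the q-value, thresholds of 0.01 and 0.1, filters on the mean, a fold of at least 1.5, centring on the median gene, subtraction of 50 chromosomal neighbours, and an error correlation of 0.3 between the A-375 tables. Python 3.11.15, pandas 2.3.3, NumPy 2.4.6 and SciPy 1.17.1 were used.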

Additional observations from a re-analysis of the deposited data

Results flagged for a closer look

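For 2 of the 8 kinases the effect of the total knockout differed between the cell lines by the Wald test of the difference itself, computed from the authors' deposited tables, where 10.4% of 12639 genes differed. BRAF was higher in UM-UC-3 and not called in A-375, and its log2 fold change in UM-UC-3 minus that in A-375 was 0.79 (adjusted p 0.00484). MAP2K5 was lower in both lines, and its difference was 0.99 (adjusted p 0.0412), which is a smaller loss in UM-UC-3. After centring each table on its median gene the MAP2K5 difference was 0.90 (adjusted p 0.0649), which leaves BRAF as the 1 kinase past the threshold.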

How the results depend on the processing

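No paired analysis was possible because the deposited tables hold no values per library, and for the same reason leaving out a replicate was not run. MAP2K5 was called lower in both total knockouts and uncalled in the long-form knockout in all 9 settings, the main one included. Only centring and neighbour subtraction can move its log2 fold change, since the other alternatives change the adjustment or the calling rule alone. Its values ran from -2.15 to -1.95 in the A-375 total knockout, from -1.20 to -1.12 in UM-UC-3 and from -0.32 to -0.24 in the long-form knockout. In UM-UC-3, 2 kinases were called lower with the q-value and 2 with an adjusted p under 0.1, against 1, since MAP2K1 joined, and ARAF joined those called higher. With a fold of at least 1.5 as well, 1 was called higher, against 2, since BRAF at 0.49 did not reach it. After centring, 1 kinase differed between the cell lines, against 2. After centring, the list counts changed as follows: scaffolds 2 higher in A-375 (against 0) and 0 higher in UM-UC-3 (against 2), kinases activated by ERK 1 higher in UM-UC-3 (against 2), the JNK and p38 arms 1 lower in A-375 (against 2) and 0 higher in UM-UC-3 (against 2), and ERK output genes 1 higher in A-375 (against 0); these were chosen after seeing the data. The sign of some uncalled values turned. In the A-375 total knockout MAP2K1 was 0.01 after centring and 0.18 after neighbour subtraction, and ARAF was -0.07 after neighbour subtraction. In the long-form knockout MAP3K3 was -0.01 after centring and -0.08, and BRAF -0.20 under neighbour subtraction. Among centred differences, MAP3K3 was -0.06 in UM-UC-3 minus A-375 and MAP2K2 -0.06 in long-form minus total knockout. The causes were not tested beyond the construction of each setting. With a mean of at least 10 in place of 100, 3 of the 5 genes nearest to MAP2K5 were shared.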
